A study of Mus musculus with 568 samples.

Results

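Ddx4-positive, pre-meiotic wells of reconstituted ovaries (rOvaries) made up 94 of the 462 rOvary wells that passed the quality limits, among 552 wells of single cells in all. Each well held 1 sorted cell, and expression was measured from full-length cDNA by counting reads per gene. A well passed with at least 4000 genes detected, at least 10000 reads and at most 5% of reads from mitochondrial genes. The wells were chosen by 3 measured values: a well was counted as Ddx4-positive and pre-meiotic at 150 or more reads-per-million units (RPM, reads of a gene scaled to the total of the well) of Ddx4, under 400 RPM of Sycp3 and under 100 RPM of Nanog. The other 368 passing wells were split without overlap into 51 Sycp3-high wells (400 RPM or more of Sycp3), 176 Ddx4-low wells (under all 3 limits) and the remaining Nanog-high wells (100 RPM or more of Nanog), which were 50 in XGFP+ constitutive, 66 in XGFPhigh, 10 in XGFPintermediate and 15 in XGFPlow, the sorted populations described next.

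All the cells came from 1 female mouse embryonic stem cell (ESC) line, named XRep, a hybrid of 129S1/SvImJ and CAST/EiJ with a GFP reporter on the 129S1/SvImJ X chromosome (Xmus) and a tdTomato reporter on the CAST/EiJ X chromosome (Xcas). A truncation of Tsix on Xmus makes that X the one to be inactivated, and doxycycline-driven Blimp1, Tfap2c and Prdm14 turned the line into primordial germ cell-like cells (PGCLCs) in 5 days. SSEA1+/CD61+ PGCLCs were sorted by GFP and cultured for 6 days with SSEA1-/CD31- somatic cells of female gonads and mesonephros at E13.5. XGFP+ PGCLCs gave the population called XGFP+ constitutive. PGCLCs without GFP gave XGFPhigh, XGFPintermediate and XGFPlow, sorted from the same kind of rOvary by the GFP they then had. All 4 populations therefore share the same line, the same reporters, the same Tsix truncation and the same transgenes, and the labels tie no well to a culture. Each population was treated as 1 sample. No test was run between groups, and the intervals below are 95% intervals for counting error alone, which do not cover that reads without molecular identifiers are not independent molecules.

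In the fetal ovary, primordial germ cells lose the pluripotency programme, switch on germ line genes such as Ddx4 and Dazl, and enter meiosis in response to retinoic acid and BMP signals. STRA8, with its partner MEIOSIN, activates meiotic genes while the cell is still in its last rounds of DNA replication, and the synaptonemal complex proteins, among them SYCP1, SYCP2, SYCP3 and TEX12, are then assembled between homologous chromosomes. Many genes switched on at this time carry CpG-rich promoters that are methylated in other cells. DDX4 is an RNA helicase of the germ granule, DAZL binds and regulates germ cell mRNAs, and NANOG is a transcription factor of pluripotent cells and early germ cells.

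Promoters of 6 genes are shown. They are Ddx4 itself, which the rule used, and the 5 genes with the greatest log2 ratio to the Ddx4-low wells among those the naming rule allowed. These 5 are among 206 genes that were at least 2-fold higher than in the Ddx4-low wells. Each window runs from 250 bases before to 50 bases after the gene's annotated start in RefSeq (GRCm38.p6), on the gene's own strand. Capitals mark matches to 3 motifs searched on both strands, which did not overlap each other: CACGTG (the E-box bound by many basic helix-loop-helix factors), TTCCCGCC (an E2F motif, GGCGGGAA on the other strand) and CNCCTCAG (a motif known for STRA8). The windows lie at chr13:112652261-112652560 on the minus strand for Ddx4, chr7:24672001-24672300 on the minus strand for Tex101, chr3:102936051-102936350 on the minus strand for Sycp1, chr5:138280259-138280558 on the plus strand for Stag3, chr9:50561219-50561518 on the minus strand for Tex12 and chr1:166238695-166238994 on the minus strand for Mael.
Ddx4: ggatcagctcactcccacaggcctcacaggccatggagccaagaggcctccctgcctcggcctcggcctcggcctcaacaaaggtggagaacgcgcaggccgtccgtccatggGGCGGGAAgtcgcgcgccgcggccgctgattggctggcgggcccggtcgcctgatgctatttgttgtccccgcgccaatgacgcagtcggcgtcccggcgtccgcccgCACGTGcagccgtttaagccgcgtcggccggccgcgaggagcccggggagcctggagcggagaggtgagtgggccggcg
Tex101: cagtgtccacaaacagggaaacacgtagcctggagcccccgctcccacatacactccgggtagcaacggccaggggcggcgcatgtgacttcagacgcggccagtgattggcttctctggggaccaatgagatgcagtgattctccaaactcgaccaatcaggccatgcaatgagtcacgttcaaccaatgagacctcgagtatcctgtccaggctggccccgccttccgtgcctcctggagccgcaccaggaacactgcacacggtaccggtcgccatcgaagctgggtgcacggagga
Sycp1: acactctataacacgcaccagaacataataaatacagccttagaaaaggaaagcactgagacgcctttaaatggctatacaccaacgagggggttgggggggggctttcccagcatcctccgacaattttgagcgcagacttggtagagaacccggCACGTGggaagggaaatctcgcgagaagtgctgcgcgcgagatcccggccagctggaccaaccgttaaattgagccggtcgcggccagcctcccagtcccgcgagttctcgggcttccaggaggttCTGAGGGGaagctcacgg
Stag3: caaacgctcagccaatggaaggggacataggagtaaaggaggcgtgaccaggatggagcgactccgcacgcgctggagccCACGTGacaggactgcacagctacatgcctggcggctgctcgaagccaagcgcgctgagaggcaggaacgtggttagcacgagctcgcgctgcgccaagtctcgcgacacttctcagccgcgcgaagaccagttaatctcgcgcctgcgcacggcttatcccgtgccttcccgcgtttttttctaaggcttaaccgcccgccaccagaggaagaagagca
Tex12: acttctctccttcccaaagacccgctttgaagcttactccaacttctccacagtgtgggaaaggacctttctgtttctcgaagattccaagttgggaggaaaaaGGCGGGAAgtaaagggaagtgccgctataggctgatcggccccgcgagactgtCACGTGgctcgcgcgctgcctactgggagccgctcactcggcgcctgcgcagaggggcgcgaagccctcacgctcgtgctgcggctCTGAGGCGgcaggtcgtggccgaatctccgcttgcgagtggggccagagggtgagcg
Mael: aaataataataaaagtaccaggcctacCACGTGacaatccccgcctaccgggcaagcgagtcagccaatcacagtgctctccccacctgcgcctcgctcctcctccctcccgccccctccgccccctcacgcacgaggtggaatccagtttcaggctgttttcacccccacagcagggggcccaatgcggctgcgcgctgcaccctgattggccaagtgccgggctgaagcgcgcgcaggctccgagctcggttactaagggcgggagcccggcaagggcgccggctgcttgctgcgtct
The windows held between 19 (Tex101) and 38 (Ddx4) CpG dinucleotides, beside a median of 7 over all 32851 RefSeq promoters of the same length and 22 over the 6376 promoters of genes considered below. CACGTG was found in 5 of the 6 windows, all but Tex101. The E2F motif was found in Ddx4 and Tex12, and the STRA8 motif in Sycp1 and Tex12. Over all promoters the shares with a match were 7.15% for CACGTG, 2.19% for TTCCCGCC and 7.94% for CNCCTCAG. Among the promoters of genes considered they were 11.2%, 4.78% and 9.49%, and among the 155 promoters of genes at least 2-fold higher than in Ddx4-low wells 13.55%, 9.03% and 19.4%. A match describes the letters in the window and was not tied to any binding measurement.

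A germ cell label was checked against the measured values. The rule itself set the range of Ddx4 from 152 to 1097 RPM, with a median of 299.7 RPM. Sycp3 lay between 0 and 397 RPM (median 56.6 RPM) and Nanog between 0 and 84.3 RPM (median 0 RPM). The members nearest the Ddx4 limit had 152.4, 152.5 and 153 RPM, and the nearest wells under it had 148.9, 145 and 140.4 RPM, so the limit cut through a continuous range: 31 wells lay between 120 and 180 RPM. Just inside the Sycp3 limit were wells at 397, 335 and 272 RPM, and just outside it wells at 417.5, 423 and 432 RPM. For Nanog the nearest wells were at 84.3, 81.3 and 79.5 RPM inside and at 101.7, 107.2 and 144.7 RPM outside. Dazl, which the rule did not use, was detected in all 94 members, at 35.5 to 5814 RPM with a median of 3150.4 RPM. Summed over 6 markers each, among them Ddx4, Sycp3 and Nanog, which the rule used, germ cell genes had a median of 4168 RPM per member, meiotic germ cell genes 489 RPM and mitotic germ cell genes 475 RPM, where the Sycp3-high wells had 5174, 3905 and 23.7 RPM. The Ddx4-low wells had 3502, 179 and 1292 RPM, so the germ cell sum hardly set the members apart from them. Of the 5 germ cell markers considered without Ddx4, 0 were higher and 2 lower than in Ddx4-low wells.

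**Figure D1:**
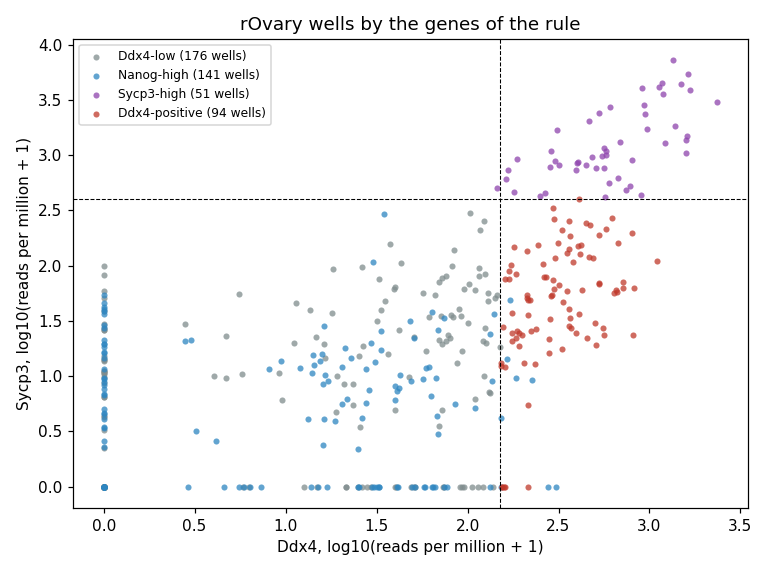
Ddx4 (x axis) against Sycp3 (y axis), both as log10(RPM + 1), for the 462 passing rOvary wells, 1 point a well, coloured by class, with dashed lines at the limits of 150 and 400 RPM. The 94 Ddx4-positive wells adjoin the Ddx4-low and Sycp3-high wells with no gap at either limit.

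The other 4 markers that were given for these cells set them apart from the Nanog-high and Sycp3-high wells, but only Dmrtb1 set them apart from the Ddx4-low wells. Dmrtb1, a DM-domain transcription factor of germ cells, had 29.3 RPM in the members, 10.0 RPM in Ddx4-low, 2.27 RPM in Nanog-high and 6.29 RPM in Sycp3-high wells. It was detected in 73 of 94 members, with a median of 20.5 and a maximum of 149 RPM. Cyp26a1, an enzyme that degrades retinoic acid, had 227 RPM in the members against 12.8 RPM in Nanog-high and 12.4 RPM in Sycp3-high wells, but 195 RPM in Ddx4-low wells, a log2 ratio of only 0.22. Hoxa5, a homeobox gene, was lower in the members (13.4 RPM) than in Ddx4-low wells (39.8 RPM) and was detected in 38 members. Acta2, smooth muscle actin, was detected in 21 members, 1 of which held 16.7% of its reads, and had 15.75 RPM in the members and 31.4 RPM in Ddx4-low wells. Against the Ddx4-low wells that had Dazl (all but 39 of the 176), the log2 ratio was 1.24 for Dmrtb1, -0.09 for Cyp26a1, -0.95 for Hoxa5 and 1.42 for Acta2, so Cyp26a1 and Acta2 changed sign with the choice of Ddx4-low wells. Dmrtb1 was thus the only given marker at least 2-fold higher in the members than in each of the other classes, and the cells are called Ddx4-positive wells below.

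Reads per member ran from 179533 to 1118370 (median 650952) and genes from 4116 to 9391. With every well thinned to 100000 reads the median was 6896 genes in the members, 6640 in Ddx4-low, 7064 in Nanog-high and 5954 in Sycp3-high wells. Wells of other cell types, by marker lists, lay almost entirely in the Ddx4-low class: 9 of its wells held over 500 RPM of 10 stroma genes, with a maximum of 44990 RPM. In the members the summed stroma genes had a median of 0 RPM with 5 of the 10 genes at 0, the 9 granulosa genes a median of 2.27 and a maximum of 113.1 RPM, and the 6 smooth muscle genes a median of 15.6 and a maximum of 408 RPM. The lists for mesonephric tubule, surface epithelium, endothelium, blood and endoderm or trophoblast had medians of 0 to 1.97 RPM and maxima of 44.8 to 159.7 RPM in the members, where the maxima in Ddx4-low wells were 1020 to 34070 RPM. Ddx4-low wells that held Dazl were used as a further comparison for this reason. In 24 ESC wells of the same table the highest Ddx4 was 67.04 RPM.

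Members that stood apart from the rest were 3 XGFPlow wells. The well labelled replicate 31 had 35.5 RPM of Dazl, where the next lowest member had 698 RPM, and it held 0 RPM of Mael and 2.29 RPM of Smc1b with 2588 RPM of Stra8. Replicate 82 had 0.0189% mitochondrial reads, where the next member had 1.47%, and the fewest genes. Replicate 46 had 603 RPM of stroma genes, including 309 RPM of Col1a2 and 256 RPM of Col3a1, where the next member had 68.9 RPM. Without these wells, the 528 genes at least 2-fold lower than in all other rOvary wells became 535, the count of higher genes moved by less than 1.5-fold, and the median X-linked ratio kept its value within the spread of wells.

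Ddx4-positive wells took up unlike shares of the 4 sorted populations. In XGFPintermediate they were 45 wells beside 83 other passing wells (35.2%, exact binomial interval 26.9 to 44.1%), and in XGFPlow 38 beside 83 (31.4%, 23.3 to 40.5%). In XGFP+ constitutive they were 6 beside 82 (6.82%, 2.54 to 14.3%) and in XGFPhigh 5 beside 120 (4%, 1.31 to 9.09%). XGFP+ constitutive was sequenced in lane 2 alone and the other populations mostly in lane 3. Within lane 2 the members were 6 wells (6.82%) in XGFP+ constitutive, 0 of 14 in XGFPhigh (interval up to 23.2%), 3 of 16 in XGFPintermediate (18.8%, 4.05 to 45.7%) and 4 of 15 in XGFPlow (26.7%, 7.79 to 55.1%). Within lane 3 they were 4.51% in XGFPhigh (1.48 to 10.2%), 37.5% in XGFPintermediate (28.5 to 47.2%) and 32.1% in XGFPlow (23.3 to 41.8%). The intervals cover counting error only. XGFPhigh, XGFPintermediate and XGFPlow came from 1 kind of rOvary and differ by the sorted GFP level.

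The values that follow are summed reads of a class divided by its summed totals, and a gene was counted as higher or lower at a 2-fold difference after adding 1 RPM, among 8744 genes with at least 10 RPM over all passing wells. Since the rule read Ddx4, Sycp3 and Nanog in these same wells, each comparison is a description and its direction for genes that move with those 3 is partly set by the rule, and Ddx4, Sycp3 and Nanog themselves were left out of the counts. Against all other rOvary wells together, 1.36% of these genes were higher and 528 genes (6.04%) were lower. The other wells are a mixture of unlike classes, and the median log2 ratio of all genes was 0.05. Against Ddx4-low wells 206 genes were higher (2.36%) and 536 lower (6.13%). Against Nanog-high wells 1051 were higher (12%) and 537 lower (6.14%), and against Sycp3-high wells 1926 were higher (22%) and 1086 lower (12.4%). The counts of the gene lists below are to be read beside these shares.

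The genes that were higher than in all other wells together included both RNA regulators of the germ line and genes of broader function. Tmem18, which encodes a small membrane protein of the nuclear envelope, was detected in all 94 members at 9.84 to 896 RPM (median 215 RPM). Its summed level was 288 RPM in the members, 95.3 RPM in Ddx4-low, 32.02 RPM in Nanog-high and 106.01 RPM in Sycp3-high wells. Rbm44, an RNA-binding protein of germ cells, had 106.9 RPM against 24.1 and 16.5 RPM in Ddx4-low and Nanog-high wells, and 73.4 RPM in Sycp3-high wells. Gfra4, a receptor of the GDNF family, had 50.3 RPM in the members and 16.7, 7.86 and 11 RPM in the Ddx4-low, Nanog-high and Sycp3-high wells. Rgs10, a regulator of G protein signalling, had 78.6 RPM in the members and 33.7, 5.79 and 33.6 RPM in the same order. Both were low in the 6 XGFP+ constitutive members, at 4.76 RPM for Gfra4 and 3.81 RPM for Rgs10, against 53.7 and 78 RPM in XGFPintermediate members.

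Of the 8744 genes considered, only 22 were at least 2-fold higher in the members than in each of the 3 classes taken singly, and 17 were lower than in each. The 22 included Tmem18, Dmrtb1, Gfra4, Rgs10, the lectin gene Mgl2 (64.6 RPM in the members and 28.04 RPM in Ddx4-low wells), the cytoskeletal linker Epb4.1l3 (54.1 and 22.6 RPM) and Pik3r2, a regulatory subunit of phosphoinositide 3-kinase (95.4 and 46.6 RPM). That the Sycp3-high wells had less of these 22 transcripts than the members follows from how the 22 were chosen. A larger set of 110 of the 8744 genes was higher than in Ddx4-low and lower than in Sycp3-high wells.

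Meiotic prophase genes were at an intermediate level in the Ddx4-positive wells. Of the 28 genes of that list that were considered, 21 were higher than in Ddx4-low wells and 0 lower (median log2 ratio 1.34, beside 0.07 for all genes), 23 were higher and 0 lower than in Nanog-high wells (median 2.07 beside 0.23), and 0 were higher and 27 lower than in Sycp3-high wells (median -2.76 beside 0.19). Sycp3 itself is on this list and was left out, and the rule's limits on Sycp3 and Ddx4 bear on the genes that vary with them. Against the Ddx4-low wells with Dazl, 16 were higher and 0 lower, with a median of 1.18, beside 246 of all genes higher (2.81%) and 245 lower (2.8%).

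The axis and synapsis genes varied widely between wells. Sycp1, a transverse filament of the synaptonemal complex, was detected in 80 of 94 members at up to 1993 RPM, with a median of 82.9 RPM. Its summed level was 262 RPM in the members (interval 258 to 266 RPM), 35.6 RPM in Ddx4-low, 19.7 RPM in Nanog-high and 1702 RPM in Sycp3-high wells. Stag3, a subunit of meiotic cohesin, was detected in 90 members with a median of 167 and a maximum of 804 RPM, and its summed 216 RPM stood against 37.4, 18.4 and 609 RPM in the same 3 classes. 
Smc1b, another meiotic cohesin subunit, was detected in every member, from 2.29 to 2505 RPM (median 667 RPM), and its level was 753 RPM in the members against 206, 110.8 and 2721 RPM in Ddx4-low, Nanog-high and Sycp3-high wells. Tex12, a central element protein, had 94.05 RPM against 16.1, 3.82 and 642 RPM in those classes. Sycp2, an axial element protein, had 84.1 RPM against 15.7, 3.63 and 1279 RPM.
Prdm9, the methyltransferase that marks recombination hotspots, had 10.7 RPM in the members and 270 RPM in Sycp3-high wells. Rad21l, a meiotic kleisin, had 0.58 RPM against 92.9 RPM, and Rad51ap2 2.22 RPM against 508 RPM. Of the 28 genes, Mlh3, a mismatch repair protein, was the only one within 2-fold of the Sycp3-high wells, at 20.1 RPM and 18.5 RPM.

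Germ line genes of the methylation-gated and piRNA list were likewise higher than in the Ddx4-low wells. This list shares Sycp1, Hormad1 and Mael with the meiotic prophase list, so the counts of these lists are not separate results. Of 16 considered, 10 were higher and 0 lower (median log2 ratio 1.29), 12 were higher and 1 lower than in Nanog-high wells (1.99), and 1 was higher and 9 lower than in Sycp3-high wells (-1.38). Among all genes 2.36% were higher than in Ddx4-low and 12% than in Nanog-high wells, and 12.4% were lower than in Sycp3-high wells. Tex101, a surface glycoprotein of germ cells, was detected in 69 members at up to 1325 RPM (median 57.6 RPM), and had 153 RPM in the members, 15.2 RPM in Ddx4-low and 1843 RPM in Sycp3-high wells. Mael, which acts in piRNA transposon silencing, was detected in 89 members (median 306 RPM, maximum 888 RPM) and had 333 RPM against 59.4 RPM in Ddx4-low, 33.3 RPM in Nanog-high and 955 RPM in Sycp3-high wells. Mov10l1, an RNA helicase of piRNA biogenesis, had 106.7 RPM against 24.5, 5.27 and 179 RPM in these classes.
The ratio to the Sycp3-high wells was not alike within the list. Piwil2, a piRNA-binding protein, had 44.7 RPM in the members and 42.4 RPM in Sycp3-high wells, and Tex14, a protein of intercellular bridges, had 132.03 and 123.4 RPM. Tex19.1, which represses transposons, was the 1 gene higher in the members, at 201 against 59.3 RPM. Rpl10l, a ribosomal protein gene, was the 1 gene lower than in Nanog-high wells, at 98.5 against 217 RPM.

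Stra8 was detected in all 94, from 186 to 8562 RPM with a median of 3039.5 RPM. Its summed level was 3439.7 RPM in the members, 1701.5 RPM in Ddx4-low, 586 RPM in Nanog-high and 3484 RPM in Sycp3-high wells, so the members were level with the Sycp3-high wells (log2 ratio -0.02). Rec8, a meiotic kleisin and target of retinoic acid, was detected in 92 members (median 119.4 RPM, maximum 893 RPM), with 132.8 RPM in the members against 77.7, 15.0 and 62.4 RPM in those classes. Stra8 and Rec8 were near or above their level in the Sycp3-high wells while the synaptonemal complex genes were below theirs. The rule's limit on Sycp3 partly sets the direction for the synaptonemal complex genes, so the contrast is a description only.
Gm4969, the symbol in the table for Meiosin, the partner of Stra8, was detected in 49 of 94 members (median 4.85, maximum 345 RPM). It had 35.4 RPM in the members, 1.41 RPM in Ddx4-low, 0.31 RPM in Nanog-high and 360 RPM in Sycp3-high wells, a log2 ratio of 3.92 to the Ddx4-low and -3.31 to the Sycp3-high wells. It was named after its values were seen, as a member of the list.
Of the 17 regulators considered, 6 were higher and 1 lower than in Ddx4-low wells (median 0.73), 10 were higher and 1 lower than in Nanog-high wells (1.53), and 8 were higher and 5 lower than in Sycp3-high wells (0.60). The shares over all genes were 2.36% and 6.13%, 12% and 6.14%, and 22% and 12.4%. Sohlh2, a helix-loop-helix factor of early germ cell differentiation, was detected in every member (median 462 RPM) and had 483 RPM against 292, 260 and 215 RPM in Ddx4-low, Nanog-high and Sycp3-high wells. Dmrt1, which in the fetal ovary acts upstream of Stra8, had 83.2 RPM against 49.03, 38.4 and 20.3 RPM. Msx2, a homeobox target of BMP signals, was the 1 gene lower than in Ddx4-low wells, at 4.50 against 15.9 RPM. The 5 genes lower than in Sycp3-high wells were Gm4969, Figla (an oocyte transcription factor), Gm1564 (the table's symbol for Meioc, which extends prophase), Taf4b and Ythdc2. Figla had 10.5 RPM against 101.2 RPM, and 1 well held 43.3% of its reads in the members.

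Genes of retinoic acid response stood apart from the Nanog-high and Sycp3-high wells but hardly from the Ddx4-low wells. Of 10 considered, 6 were higher and 1 lower than in Nanog-high wells (median log2 ratio 1.68), 6 higher and 0 lower than in Sycp3-high wells (1.66), and 1 higher and 1 lower than in Ddx4-low wells (0.18). Among all genes these shares were 12% and 6.14%, 22% and 12.4%, and 2.36% and 6.13%. Cyp26a1 was detected in 63 members, from 0 to 1901 RPM with a median of 88.2 RPM. By population it had 70.9 RPM in XGFP+ constitutive, 82.5 RPM in XGFPhigh, 200.2 RPM in XGFPintermediate and 289.7 RPM in XGFPlow members. Rarb, a retinoic acid receptor that is itself induced by retinoic acid, had 61.7 RPM in the members against 47.6, 10.4 and 20.1 RPM in Ddx4-low, Nanog-high and Sycp3-high wells. Crabp2, a retinoic acid carrier, had 97.6 RPM against 79.1, 15.0 and 28.3 RPM.

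**Figure D2:**
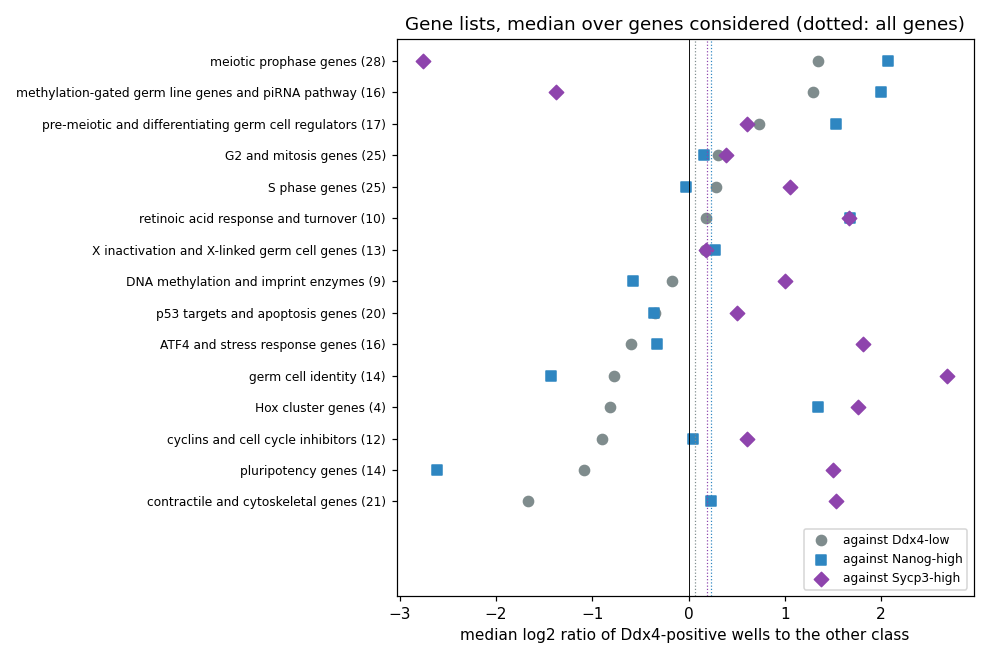
Median log2 ratio of the Ddx4-positive wells to the Ddx4-low, Nanog-high and Sycp3-high wells (x axis) for the gene lists, with the number of genes considered in brackets and dotted lines at the medians of all genes. Meiotic prophase genes lie above 0 against Ddx4-low and Nanog-high wells (1.34 and 2.07) and below 0 against Sycp3-high wells (-2.76), and pluripotency genes lie the other way round.

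Pluripotency genes and genes of early germ cells went the other way. Among 14 pluripotency genes considered, 7 were lower and 0 higher than in Ddx4-low wells (median log2 ratio -1.08), 11 lower and 0 higher than in Nanog-high wells (-2.62), and 9 higher and 0 lower than in Sycp3-high wells (1.50). Over all genes 6.13% were lower than in Ddx4-low, 6.14% lower than in Nanog-high and 22% higher than in Sycp3-high wells. Dppa5a, an RNA-binding protein of pluripotent cells, was still detected in every member (40.4 to 7937 RPM, median 507 RPM), and its 804 RPM stood between the 3419.5 and 8226 RPM of Ddx4-low and Nanog-high and the 125 RPM of Sycp3-high wells. Zfp42, a zinc finger protein of pluripotent cells, had 103.8 RPM in the members against 269.6, 1228 and 78.5 RPM in the same order. Tdgf1, a Nodal co-receptor, had no read in the members and 77.1 RPM in Nanog-high wells. Nr0b1, an X-linked nuclear receptor of pluripotent cells, had 1.65 RPM against 163 RPM.
Of 14 germ cell identity genes considered, 5 were lower than in Ddx4-low wells (median -0.78), 8 were lower and 1 higher than in Nanog-high wells (-1.43), and 9 were higher and 0 lower than in Sycp3-high wells (2.69). These counts stand beside the same shares of all genes as the pluripotency counts. The list shares Sox2, Pou5f1, Lin28a, Zfp42, Esrrb and Utf1 with the pluripotency list, so its counts are not a separate result. Dppa3, a maternal factor expressed in primordial germ cells, was detected in 80 members at 0 to 3850 RPM (median 374 RPM) and had 611 RPM against 1171, 1150 and 33 RPM in the other classes.

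DNA methylation enzymes differed by gene. Of 9 considered, 3 were lower and 0 higher than in Ddx4-low wells and 3 were lower and 0 higher than in Nanog-high wells: Dnmt3l, Tet1 and Tet2 in both cases. The shares of all genes that were lower were 6.13% and 6.14%. Dnmt3l, the cofactor of de novo methylation, was detected in 4 members, with 0.99 RPM in the members, 39.2 RPM in Ddx4-low, 168 RPM in Nanog-high and 7.33 RPM in Sycp3-high wells. Tet1, which oxidises methylated cytosine, had 25.6 RPM in the members against 67.1, 104.2 and 10.3 RPM. Dnmt1, the maintenance methyltransferase, had 198 RPM against 136.2, 130.9 and 87.7 RPM.

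Cell cycle genes were counted in 3 lists. Over all genes 2.36% were higher and 6.13% lower than in Ddx4-low wells, and 12% higher and 6.14% lower than in Nanog-high wells. Of 25 S phase genes, 1 was higher and 0 lower than in Ddx4-low and likewise in Nanog-high wells, and 14 were higher and 1 lower than in Sycp3-high wells (median log2 ratio 1.05, beside 0.19 over all genes, of which 22% were higher and 12.4% lower). Of 25 genes of G2 and mitosis, 0 were 2-fold apart from Ddx4-low or Nanog-high wells, and 9 were higher and 3 lower than in Sycp3-high wells (median 0.38), read against the same background. Mki67, a marker of cycling cells, was detected in 82 members with a median of 178 RPM, and its summed level was 202 RPM in the members and 188 RPM in Sycp3-high wells. Ccnb1, the mitotic cyclin B1, had 792 RPM in the members against 633, 815 and 112.96 RPM in Ddx4-low, Nanog-high and Sycp3-high wells. Of 12 cyclins and inhibitors, 0 were higher and 5 lower than in Ddx4-low wells (median -0.89, where 6.13% of all genes were lower). Against the Ddx4-low wells with Dazl, 2 were higher and 2 lower, beside 2.81% and 2.8% of all genes. Against the Sycp3-high wells, 3 were higher and 0 lower (median 0.61), beside 22% and 12.4% of all genes.

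Lists of genes of other cell types and of stress differed from each class in other ways. Of 21 contractile and cytoskeletal genes, 13 were lower and 0 higher than in Ddx4-low wells (median log2 ratio -1.67), while against the Ddx4-low wells with Dazl 6 were lower and 1 higher (-0.40, where 2.8% of all genes were lower). Against the Sycp3-high wells 15 of the 21 were higher and 0 lower (median 1.53, where 22% of all genes were higher). Vim, an intermediate filament protein of mesenchyme, had 7.69 RPM in the members and 318 RPM in Ddx4-low wells. Of 16 genes of the ATF4 and stress list, 7 were lower than in Ddx4-low wells, 1 was lower than in those with Dazl, and 10 were higher and 1 lower than in Sycp3-high wells (median 1.81). The shares of all genes in those directions were 6.13%, 2.8%, 22% and 12.4%. Of 20 p53 and apoptosis genes, 2 were lower than in Ddx4-low wells (median -0.35), 6 lower than in Nanog-high wells (-0.36) and 9 higher than in Sycp3-high wells (0.50), beside 6.13%, 6.14% and 22% of all genes in those directions. Only 4 Hox genes reached 10 RPM over the passing wells, and all 4 were higher than in Sycp3-high wells, as were 22% of all genes. Hoxb1, the largest of these differences, had 36.1 RPM in the members and 1.30 RPM in Sycp3-high wells.

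Lefty1 and Lefty2, antagonists of Nodal, were among the genes named as most strongly higher than in the Sycp3-high wells, a naming that asked for 50 RPM or more and the same direction in XGFPintermediate and XGFPlow, and most of their reads lay in few members. Lefty1 had 257 RPM in the members against 572, 574 and 4.96 RPM in Ddx4-low, Nanog-high and Sycp3-high wells, and it was detected in 59 members with a median of 32.3 and a maximum of 3788 RPM. Lefty2 had 190.4 RPM against 0.35 RPM in Sycp3-high wells and was detected in 45 members, 1 of which held 21.3% of its reads. By population Lefty1 had 731 RPM in XGFP+ constitutive, 1735 RPM in XGFPhigh, 110.9 RPM in XGFPintermediate and 191 RPM in XGFPlow members. These genes are neighbours of near-identical sequence, so reads may have been lost or split between them: 41 members had both, 18 only Lefty1, 4 only Lefty2 and 31 neither. Foxh1, the transcription factor through which Nodal acts, was detected in 75 members, and its level was 85.9 RPM in the members against 3.64 RPM in Sycp3-high wells.

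The spread among the members was described by their components. In a principal component analysis of the 500 most variable genes, component 1 took 11.03% of the variance, component 2 8.49% and component 3 5.12%. Sycp1, Tex15, 1700013H16Rik, Sycp2 and Tex12 had the highest weights on component 1, and Dppa3, Ifitm1, Ube2c, Ifitm3 and Lefty1 the lowest, of which Ube2c acts in mitosis. Over the 94 wells component 1 had a rank correlation of 0.54 with Sycp3, 0.52 with Dazl, -0.31 with the number of genes and -0.13 with reads, given as a description over wells that share lanes and depth. Component 2 ran from Plk1, Aurka, Tpx2, Mki67 and Cdc20, genes of mitosis, to Cdt1, Cdc6, Gins2, Cdca7 and Rab4a, of which Cdt1, Cdc6 and Gins2 license or start DNA replication.
Sycp1 and Dppa3 had a rank correlation of -0.55 over the 94 wells, and 67 of them held both transcripts. Cyp26a1 had a rank correlation of 0.43 with Stra8 and 0.45 with Crabp2.

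**Figure D3:**
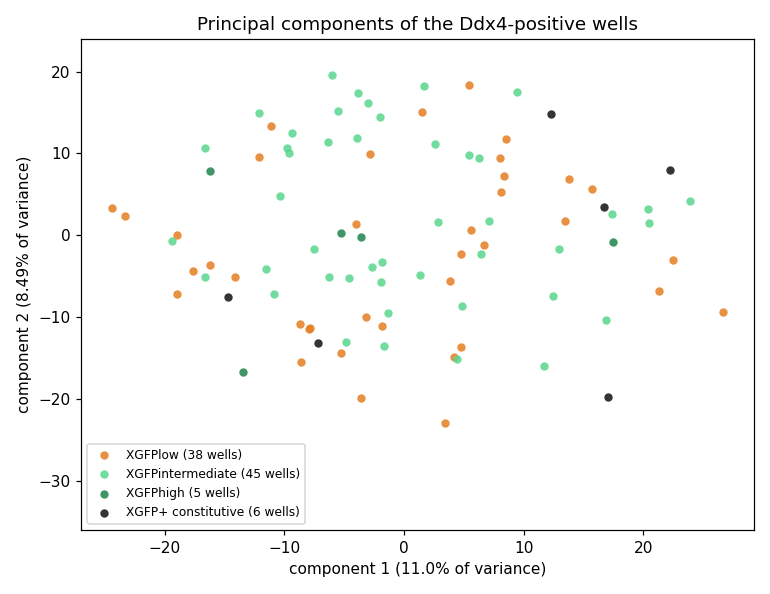
Component 1 against component 2 of the 94 Ddx4-positive wells, 1 point a well, coloured by sorted population. XGFPintermediate and XGFPlow wells are spread over the whole range, and 4 of the 6 XGFP+ constitutive wells are at the high end of component 1.

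The median on component 1 was 14.5 for the 6 XGFP+ constitutive members, -5.29 for the 5 XGFPhigh members, -1.90 for XGFPintermediate and -0.15 for XGFPlow members. Of the 6 XGFP+ constitutive members, 4 held 817 to 1993 RPM of Sycp1 and no Dppa3 read, and the other 2 held 0 and 18.01 RPM of Sycp1 with 2143 and 1132 RPM of Dppa3. The population was therefore split in itself. Of the 5 XGFPhigh members, 1 held 1262 RPM of Sycp1 with no Dppa3 read and 4 held 0 to 30.6 RPM of Sycp1 with 440.4 to 1145 RPM of Dppa3.

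Taf7l, an X-linked TFIID subunit of germ cells, had unlike levels in the 4 populations of members. Its level was 943 RPM in XGFP+ constitutive, 444 RPM in XGFPhigh, 60.5 RPM in XGFPintermediate and 65.5 RPM in XGFPlow members, and 2055 RPM in Sycp3-high wells. It was detected in 52 members, and 1 well held 20.4% of its reads. Tktl1, another X-linked germ cell gene, had 259 RPM in XGFP+ constitutive and 10.5 RPM in XGFPlow members, with 731 RPM in Sycp3-high wells. All 6 XGFP+ constitutive members were sequenced in lane 2, as were 3 of the XGFPintermediate and 4 of the XGFPlow members. Of the 13 genes considered on the X-linked list, 2 were higher and 1 lower than in Ddx4-low wells, 4 higher and 0 lower than in Nanog-high wells, and 4 higher and 5 lower than in Sycp3-high wells. Over all genes these shares were 2.36% and 6.13%, 12% and 6.14%, and 22% and 12.4%.

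The allelic ratio asks which X the transcripts came from, with 0 for reads of Xcas alone and 0.5 for equal reads of both. It was taken from the deposited ratios per X-linked gene and well, as the mean over genes with a ratio in a well. For 89 members with a ratio it ran from 0.211 to 0.518 with a median of 0.347, and 0 members were at or below 0.1, while 14 of 145 Ddx4-low wells were, 1 of them among those with Dazl. The median was 0.484 in 6 XGFP+ constitutive, 0.441 in 5 XGFPhigh, 0.353 in 45 XGFPintermediate and 0.320 in 33 XGFPlow members. In 23 ESC wells it was 0.441. The sort on GFP, which is expressed from Xmus, bears directly on this order.

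**Figure D4:**
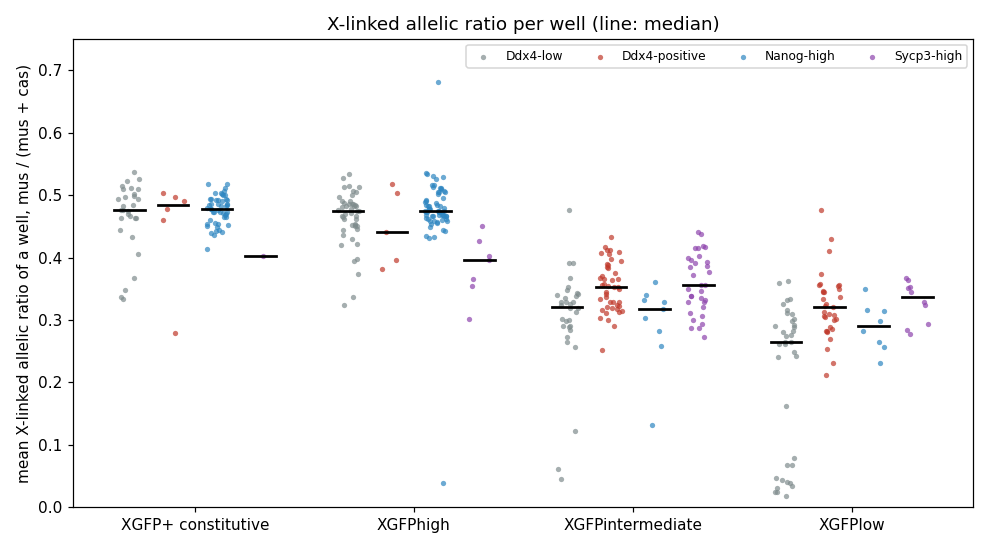
X-linked allelic ratio of each well, Xmus reads over Xmus plus Xcas reads averaged over genes (y axis), by sorted population and class, with a line at each median. Ddx4-positive wells of XGFPintermediate and XGFPlow have medians of 0.353 and 0.320 and none is at or below 0.1, and 1 of the 6 XGFP+ constitutive members is at 0.279.

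Within a sorted population the members' median lay above that of Ddx4-low wells where GFP was intermediate or low. In XGFPintermediate it was 0.353 against 0.321 in Ddx4-low, 0.318 in Nanog-high and 0.356 in Sycp3-high wells. In XGFPlow it was 0.320 against 0.264, 0.290 and 0.337. Against the Ddx4-low wells with Dazl the difference narrowed, with 0.325 in XGFPintermediate and 0.282 in XGFPlow. The ranges of wells overlapped in each case. In XGFP+ constitutive it was 0.484 against 0.477 in Ddx4-low wells, and in XGFPhigh 0.441 against 0.474.

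Single X-linked genes covered the whole range. Among 214 genes with a ratio in at least 10 members, 21 had a mean at or below 0.1, 87 at or above 0.4 and 26 above 0.5. The lowest in at least 20 members were Sh3bgrl (0.034), Tex11 (0.041), 2610002M06Rik (0.042), Rragb (0.051) and Gab3 (0.052). The highest were 1810030O07Rik (0.806), Rpl10 (0.721), Nono (0.657), Trappc2 (0.628) and Ofd1 (0.594). In each of the other classes 1810030O07Rik, Nono and Trappc2 were above 0.5 too, so their high ratios were not particular to the members. Ofd1 was below 0.5 in each of those classes. Rpl10 was above 0.5 in Ddx4-low and Nanog-high wells and at 0.291 in 11 Sycp3-high wells.
Tex11 is an X-linked meiotic gene that regulates crossovers. Its level was 313 RPM in the members, against 107.6 RPM in Ddx4-low, 75.3 RPM in Nanog-high and 692 RPM in Sycp3-high wells, and it was detected in 92 members (median 274 RPM, maximum 1164 RPM). Of 84 members with a Tex11 ratio, 66 had no Xmus read. The mean ratio was 0.0154 in XGFPintermediate and 0.0011 in XGFPlow members, against 0.283 in 4 XGFP+ constitutive and 0.319 in 5 XGFPhigh members. Its level was 335 RPM in XGFPintermediate, 282 RPM in XGFPlow, 377 RPM in XGFP+ constitutive and 320.3 RPM in XGFPhigh members, so it was not lower than 282 RPM in any population.
Rhox9, a homeobox gene of the X, had ratios of 0.0963 in XGFPintermediate and 0.0404 in XGFPlow members, against 0.575 in XGFP+ constitutive and 0.455 in XGFPhigh. Pgk1, a glycolytic enzyme, had 0.509 in XGFPintermediate and 0.440 in XGFPlow members. Both were named after their ratios were seen.

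Bulk libraries of the PGCLCs before the rOvary gave a reference for the same genes, although their ratios were made separately and a bulk ratio of 0 may also stand for no allelic read. A gene's value in the members is the mean of single-well ratios at equal weight, while a bulk ratio pools many cells. A few wells at 1 can therefore lift it. Mageh1, named after its ratio was seen, had a mean of 0.139 from 31 wells at 0 and 5 at 1. Of 98 genes that had bulk ratios and were biallelic in bulk ESCs, 49 were at or below 0.1 in bulk XGFP- PGCLCs, with a median of 0.0218. In all members, which include XGFP+ constitutive and XGFPhigh wells, 8 of these 49 were still at or below 0.1 and 41 were above it, with a median of 0.245. In the XGFPintermediate and XGFPlow members alone 16 were at or below 0.1 and 33 above it, with a median of 0.204. With the study's own limit, which is higher than 0.1, 57 genes counted as inactive in the bulk libraries, and 12 of them were so in all members and 45 were not. The median over the 49 genes was 0.253 in XGFPintermediate members, 0.143 in XGFPlow members, 0.357 in all Ddx4-low wells and 0.281 in Sycp3-high wells, of which the Ddx4-low wells hold a larger share of XGFP+ constitutive and XGFPhigh wells. The other 49 genes had a median of 0.277 in bulk XGFP- PGCLCs and 0.453 in the members. The bulk libraries come, by the study's methods, from 2 clones with 2 technical replicates of each, so their SD is in part technical. Pgk1 was at 0.0795 ± 0.0341 in bulk XGFP- PGCLCs (SD, n = 4 libraries) and at 0.49 in the members, while Rhox9 was at 0.0615 ± 0.0069 (SD, n = 4) in the former and 0.139 in the latter. Rragb was at 0.0015 ± 0.0020 (SD, n = 4) and 0.051.

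The share of all reads from 586 X-linked genes followed the populations in the same order. It had a median of 6.29% in XGFP+ constitutive, 5.47% in XGFPhigh, 4.08% in XGFPintermediate and 3.86% in XGFPlow members. In XGFPintermediate the members' 4.08% stood beside 5.23% in Sycp3-high wells (3.36 to 6.62% by well) and 3.8% in Ddx4-low wells. Xist, the RNA that coats the inactive X, was detected in 22 of 94 members, with 9.46 RPM in the members against 37.97 RPM in Ddx4-low, 17.6 RPM in Nanog-high and 2.97 RPM in Sycp3-high wells, and 1 well held 21.4% of the members' reads. The Ddx4-low value for Xist includes wells without Dazl and wells of other cell types. Within XGFPintermediate members the ratio per well had a rank correlation of -0.003 with Xist, 0.15 with Sycp3 and -0.35 with reads over 45 wells, and within XGFPlow members 0.029, 0.14 and 0.008 over 33 wells.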

How the data were processed

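Single-cell RNA-seq of rOvary wells was analysed from the deposited gene table of raw read counts. The authors made cDNA with a SMART-seq2-type protocol without molecular identifiers, aligned reads with STAR to an mm10 genome in which the SNPs of the strains were masked, and counted reads per gene with HTSeq 0.6.1. The second kind of values was the authors' allelic fraction (ratio of Xmus reads to Xmus plus Xcas reads, 0 to 1) per X-linked gene, deposited for single wells (219 genes, 440 wells) and, made separately, for bulk libraries of ESCs and PGCLCs. Bulk normalized counts were not used here. There were 4 columns of per-sample values that matched no sample, and they were not used.

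Counts were divided by the well total (RPM), since each well held 1 cell. Wells passed with at least 4000 genes, 10000 reads and at most 5% mitochondrial reads. No doublet caller was run. Reads were summed per class, and log2 ratios were taken after adding 1 RPM for genes at 10 RPM or more over all passing wells. No test was run: the labels tie no well to a culture, and the rule read the same wells. Intervals are 95%, Poisson for summed reads and Clopper-Pearson for shares. Components were computed from log2(RPM + 10). Allelic ratios were averaged over genes per well. A ratio limit of 0.1, in place of the study's higher one, was chosen after seeing the data, as were the leaving out of 3 wells that stood apart and the comparison with Ddx4-low wells that had Dazl. Dazl counts as present above 1 on a natural log scale, a limit set here. The study's results give its own Dazl limit on a log2 scale. The gene lists hold 370 genes, of which 351 were found, 6 of them through a synonym.

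The members and the lists were chosen with earlier results of these data known. Genes were named if they were in the rule or the given markers, if they were among the 10 highest or lowest against all other wells or the 5 highest or lowest against each class (at 50 RPM or more, in the same direction in XGFPintermediate and XGFPlow, with no well over 25% of the reads), among the 4 most different of a list, among the 5 strongest weights at each end of components 1 and 2, or among the 5 lowest and highest X-linked ratios. Further members of the lists were named after their values were seen, as were genes given only by population. Some genes that this rule names are not reported here. Analyses used Python 3.11.15, pandas 2.3.3, NumPy 2.4.6 and SciPy 1.17.1, and the summing and calling of genes was tested on simulated data.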

Additional observations from a re-analysis of the deposited data

Results flagged for a closer look

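Among the 6 XGFP+ constitutive members, the well labelled replicate 19 had an X-linked allelic ratio of 0.279, while the other 5 lay between 0.460 and 0.503. Its gap to the nearest well was 0.808 of the whole range, beyond the critical value of 0.625 for 6 wells. Chance flags about 1 in 20 such sets of values, and 8 sets were examined. They were the allelic ratio, genes, mitochondrial percent and component 1, each in XGFP+ constitutive and in XGFPhigh members alone. The same well held 450.3 RPM of Cyp26a1, 817 RPM of Sycp1 and no read of Sycp3, Mael or Dppa3, from 299825 reads.

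Among the 56 rOvary wells that failed the quality limits, 3 met the limits on Ddx4, Sycp3 and Nanog. An XGFPintermediate well (replicate 31) had only 4489 reads, with 668 RPM of Ddx4. An XGFPlow well (replicate 74) had 5.05% mitochondrial reads, 290.1 RPM of Ddx4 and 4467 RPM of Dazl. A further XGFPintermediate well (replicate 77) had 9.57% mitochondrial reads and 329.6 RPM of Ddx4. None of the 10 empty wells, which held at most 242 reads, met these limits.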

How the results depend on the processing

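Of 49 alternative values for the shares, the counts of genes and the X-linked ratio, 14 moved, and in each the cause was not tested beyond what the setting itself changes. The genes higher than in all other wells (1.36% of those considered) became 66 with a pseudocount of 5, 27 with a filter at 50 RPM, 347 with no filter, 224 within XGFPintermediate, 194 among wells with Dazl and 246 against the Ddx4-low wells with Dazl. The 528 lower genes became 147 with a filter at 50 RPM, 1639 with no filter and 245 against the Ddx4-low wells with Dazl. The share of 20.3% became 35.2% in XGFPintermediate, 31.4% in XGFPlow, 24.6% in lane 3, 15.6% with a Ddx4 limit of 200 RPM and 25.5% with a limit of 100 RPM. The X-linked ratio stayed within the spread of wells (SD 0.0625) in each alternative. Of the 68 named genes at least 2-fold apart from all other wells, 361 of 408 alternative values kept that size and direction, and 2 reversed: Nr0b1 had a log2 ratio of 0.47 within XGFPintermediate, and Taf7l one of 0.75 within XGFPlow. This tally is partly fixed by the naming, which took the largest ratios in these same wells. Genes named as highest or lowest against all other wells had to keep their direction in XGFPintermediate and XGFPlow, so those settings could not reverse them. No paired analysis was possible because the results come from no test. Depth limits the low genes: a gene near 10 RPM is a few reads per well, and a well at 0 may still have held the transcript.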
